A study of Homo sapiens with 8 samples.

Results

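The LINC RNAs are transcripts listed as long intergenic non-coding RNAs, whose gene symbols are the letters LINC followed by a number. Of 876 such symbols in the deposited table, 116 had a mean CPM (the count scaled to the library's total count) of at least 0.5 over the 8 libraries, and these 116 are described here. They were taken from 26475 gene symbols, of which 13564 reached the same level. A total of 423 LINC symbols had a count in any library. The level chose the members, so their levels are given as a description and were not tested.

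The libraries came from BT474, a long-established line of human breast cancer cells in which ERBB2 is amplified and the estrogen receptor is expressed. A set of 4 libraries was labelled NPY1R high and a set of 4 was labelled NPY1R low, after the gene of a receptor for neuropeptide Y. The labels do not say how high and low cells were separated, name no drug or other treatment, and do not say whether replicates were separate cultures, so the p-values measure only the spread between these libraries. The comparison asks which LINC RNAs differed in level between the NPY1R groups of this 1 cell line.

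Long non-coding RNAs are transcribed, capped and often spliced like messenger RNAs, but most have no long open reading frame. Some act in the nucleus at their own site of transcription, some bind proteins or other RNAs in the cytoplasm, and a few that were first listed as non-coding were later found to be translated into small proteins. A LINC symbol therefore records how a transcript was first listed, and it does not state a function. In the RefSeq annotation 14 of the 116 members overlap a protein-coding gene. Many members of the class are made in few cell types and at low level.

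Promoter sequences are shown for 4 of the LINC RNAs that the results turn on: both of the largest rises, the one called member whose window held an estrogen response element half-site, and the largest fall. Each run is 300 bases, from 250 bases before to 50 bases after the annotated start site, written 5′ to 3′ along the gene's own strand and taken from RefSeq on GRCh38.p14. Capitals mark a TATA box core (TATANAA) in LINC00673 and a half-site (AGGTCA) in LINC00938, and the other runs held no match to a motif searched here. The windows lie at chr17:72592755-72593054 for LINC00673, chr6:33896858-33897157 for LINC01016, chr12:45727872-45728171 for LINC00938 and chr1:235069769-235070068 for LINC01348, each on the minus strand.
LINC00673: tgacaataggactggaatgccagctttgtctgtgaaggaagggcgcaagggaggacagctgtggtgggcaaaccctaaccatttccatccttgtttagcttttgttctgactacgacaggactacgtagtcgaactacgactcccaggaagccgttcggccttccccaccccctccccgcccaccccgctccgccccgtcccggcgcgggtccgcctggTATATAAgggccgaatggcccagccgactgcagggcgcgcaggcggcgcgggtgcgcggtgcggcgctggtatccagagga
LINC01016: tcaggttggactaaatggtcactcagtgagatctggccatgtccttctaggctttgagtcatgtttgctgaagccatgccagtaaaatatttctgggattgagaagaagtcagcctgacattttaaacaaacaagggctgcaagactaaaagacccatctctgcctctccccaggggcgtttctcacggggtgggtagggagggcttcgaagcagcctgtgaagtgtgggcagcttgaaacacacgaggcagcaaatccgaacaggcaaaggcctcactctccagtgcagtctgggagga
LINC00938: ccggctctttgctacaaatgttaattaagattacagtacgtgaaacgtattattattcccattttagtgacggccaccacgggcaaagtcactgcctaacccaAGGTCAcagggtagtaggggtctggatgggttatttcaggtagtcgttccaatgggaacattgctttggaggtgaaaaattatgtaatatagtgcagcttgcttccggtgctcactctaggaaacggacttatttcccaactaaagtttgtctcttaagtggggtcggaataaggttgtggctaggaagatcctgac
LINC01348: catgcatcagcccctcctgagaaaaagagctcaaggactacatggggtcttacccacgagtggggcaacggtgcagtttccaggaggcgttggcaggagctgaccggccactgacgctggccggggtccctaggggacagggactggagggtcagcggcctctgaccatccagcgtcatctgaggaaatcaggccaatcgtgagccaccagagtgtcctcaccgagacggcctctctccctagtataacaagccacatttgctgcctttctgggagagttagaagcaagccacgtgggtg

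Of the members, 96 had a promoter entry, and 9 of the 12 that passed the test did. The half-site AGGTCA, read on both strands, was in 17 of the 96 member windows (17.7%) and in 13.9% of 27305 RefSeq promoter windows of the same length. In LINC00938 it began 147 bases before the start site. The full palindrome GGTCANNNTGACC was in 0.0659% of all windows and in 0 of the 96, and the forkhead core TGTTTAC was in 3.41% of all windows and in 3 member windows (3.13%). The letters TATANAA were in 9.51% of all windows and in 9 member windows (9.38%). Of the called members, LINC00673 held TATATAA from 31 bases before its start site, and LINC00998 held overlapping matches on both strands from 207 bases before. The TATANAA form was chosen after the sequences were seen. These are matches of letters, not sites of binding, and a window without a match says nothing about the factor. Median GC content was 57.5% in member windows and 58.3% in all windows.

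All 116 members passed the filter on low counts and were tested among 14008 genes. Of these, 12 (10.3%) had an adjusted p below 0.05 (quasi-likelihood test of edgeR), beside 13.6% of all genes tested. In NPY1R high cells 10 members were higher (8.62%, beside 5.78% of all genes) and 2 were lower (1.72%, beside 7.81%). The share of members called lies near that of all genes. In NPY1R high the ones that rose were LINC00673, LINC01016, LINC00858, LINC00883, LINC00992, LINC00312, LINC00910, LINC00938, LINC00998 and LINC01296, and those that fell were LINC00514 and LINC01348. The count depended on single libraries: it was 5 without NPY1R high replicate 3, 5 without NPY1R low replicate 1 and 7 without NPY1R low replicate 2. The share of all genes called in these fits is not given here, so the drop cannot be read as particular to LINC RNAs. Of the 12, LINC00673, LINC01016, LINC00858, LINC00883 and LINC00514 passed in each of the 8 fits that left out 1 library, and the other 7 lost the call in 5 to 7 of them.

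**Figure D1:**
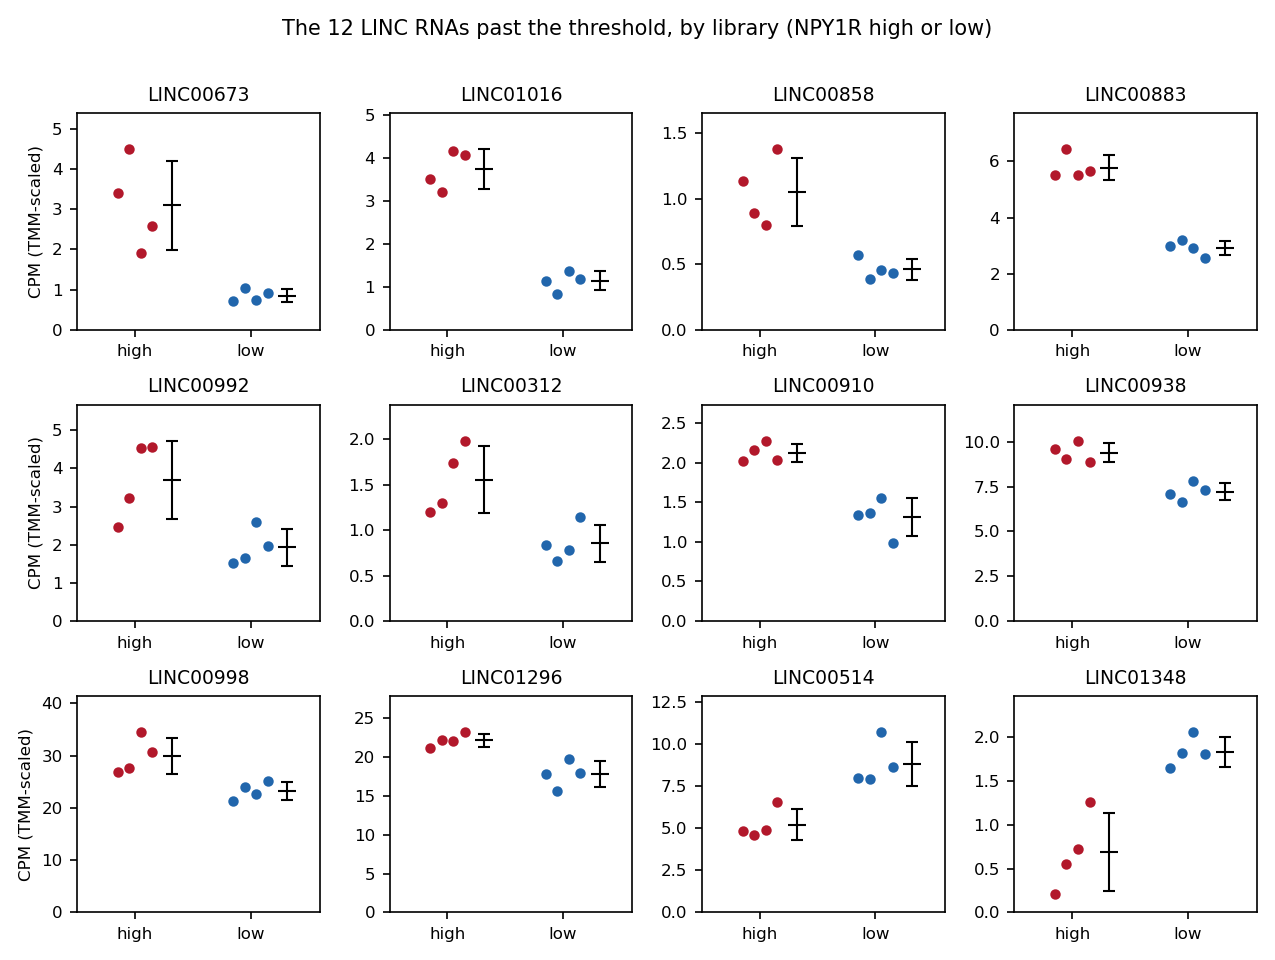
Each panel shows 1 of the 12 LINC RNAs past the threshold, with TMM-scaled CPM on a vertical axis that starts at 0, 1 point per library (NPY1R high in red, NPY1R low in blue, replicates 1 to 4 from left to right) and a bar for the mean ± SD (n = 4). The groups do not overlap in 11 panels, and in LINC00992 the lowest high library lies at 2.47 CPM, under the highest low library at 2.61 CPM.

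LINC00673, studied as a cancer-associated transcript, had the largest rise. RefSeq places it at chr17:72403322-72592804 on the minus strand, between SOX9 and SLC39A11. It measured 3.40, 4.50, 1.92 and 2.59 CPM in NPY1R high replicates 1 to 4. In NPY1R low it measured 0.705, 1.05, 0.732 and 0.903 CPM. The groups did not overlap, although the high libraries differed from each other more than the low ones did. The means were 3.10 ± 1.11 and 0.848 ± 0.161 CPM (SD, n = 4), a log2 fold change of 1.87 (SE 0.29), or 3.65-fold, at an adjusted p of 0.00183. LINC00511, a separate symbol that lies upstream on the same strand at chr17:72598041-72640472, had 7, 0, 2 and 1 counts in NPY1R high and 0 counts in each NPY1R low library, too few to be tested. LINC00673 is the member whose promoter above carries the TATATAA run.

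LINC01016, described in breast cancer as a target of the estrogen receptor, had the lowest adjusted p of the members. It lies at chr6:33889511-33896907 on the minus strand. Its levels were 3.50, 3.2, 4.16 and 4.07 CPM in NPY1R high and 1.14, 0.841, 1.37 and 1.18 CPM in NPY1R low. Every high library stood well above every low library. The means of 3.73 ± 0.461 and 1.13 ± 0.220 CPM (SD, n = 4) gave a 3.30-fold rise (log2 fold change 1.72, SE 0.19, adjusted p 0.000225). ESR1, the estrogen receptor gene, was also higher in NPY1R high, with a log2 fold change of 0.59, as was PGR, the progesterone receptor gene, with 1.71. Whether these changes are related to LINC01016 was not tested.

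LINC00858 and LINC00883 also rose, from different levels and with different precision. LINC00858, at chr10:84279980-84294659 on the plus strand, was among the sparse members, with 10 to 33 counts per library. It measured 1.13, 0.892, 0.796 and 1.38 CPM in NPY1R high and 0.570, 0.385, 0.458 and 0.432 CPM in NPY1R low. The groups did not overlap, and the log2 fold change was 1.16 (SE 0.26, adjusted p 0.0144). With means of 1.05 and 0.461 CPM it reached the minimum of 0.5 CPM through its high group alone, so the choice of members favoured its rise. Of the 106 members with a mean of at least 0.5 CPM in each group, 11 passed (10.4%, beside 13.6% of all genes), all of the 12 but LINC00858. LINC00883 is now named DUBR, after a mouse counterpart that acts in muscle cell differentiation, and lies at chr3:107240692-107326964 on the plus strand. It had the tightest libraries of the larger rises, at 5.53, 6.43, 5.5 and 5.67 CPM in NPY1R high against 2.99, 3.19, 2.93 and 2.55 CPM in NPY1R low. Its level was 1.98-fold higher (log2 fold change 0.99, SE 0.13, adjusted p 0.000618).

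A further group of rises was closer to the threshold, and each lost its call when some single libraries were left out. LINC00992, at chr5:117415512-117579744 on the plus strand, measured 2.47, 3.24, 4.52 and 4.57 CPM in NPY1R high and 1.51, 1.65, 2.61 and 1.96 CPM in NPY1R low. It was the one called member whose groups overlapped (log2 fold change 0.94, SE 0.25, adjusted p 0.0317), and it lost its call in 5 of the 8 fits that left out 1 library. LINC00910, at chr17:43369845-43388898 on the minus strand, measured 2.03, 2.16, 2.28 and 2.04 CPM in NPY1R high and 1.34, 1.37, 1.56 and 0.982 CPM in NPY1R low. Its high libraries lay close together and above all low ones (log2 fold change 0.70, SE 0.18, adjusted p 0.0264, call lost in 5 of the 8).

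LINC00312, first described in nasopharyngeal carcinoma, is the least certain of the rises. It measured 1.2, 1.3, 1.74 and 1.98 CPM in NPY1R high and 0.839, 0.665, 0.778 and 1.14 CPM in NPY1R low. Its log2 fold change reached 0.85 (SE 0.25, adjusted p 0.0482), and the call was lost in 7 of the 8 fits, with no filter on low counts and in limma-voom. It lies at chr3:8571782-8574668 on the plus strand, inside the span of LMCD1 and on its strand. LMCD1, which encodes a LIM domain protein, was at 21.7 ± 1.48 and 19.3 ± 2.93 CPM (SD, n = 4), with a log2 fold change of 0.17 and an adjusted p of 0.421. Counts of LINC00312 are uncertain because the authors' counting could have split reads between the overlapping genes.

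The 3 smallest rises, those of LINC00938, LINC00998 and LINC01296, came from better counted members, each with at least 161 counts in every library. LINC00938, at chr12:45725720-45727921 on the minus strand, measured 9.62, 9.04, 10.1 and 8.87 CPM in NPY1R high and 7.08, 6.65, 7.82 and 7.31 CPM in NPY1R low. Its log2 fold change was 0.38 (SE 0.10; adjusted p 0.0305), and the call was lost in 5 of the 8 fits and with a replicate block (adjusted p 0.056). LINC01296 is the pseudogene DUXAP9 in RefSeq, at chr14:19062377-19107497 on the plus strand. It measured 21.2, 22.2, 22.1 and 23.2 CPM against 17.9, 15.7, 19.7 and 17.9 CPM (log2 fold change 0.32, SE 0.09, adjusted p 0.0367), with the call lost in 6 of the 8 fits and with the block (adjusted p 0.0579). Its value is uncertain because near-identical copies exist. DUXAP10, a related copy, had a log2 fold change of 0.12 with an adjusted p of 0.885.

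**Figure D2:**
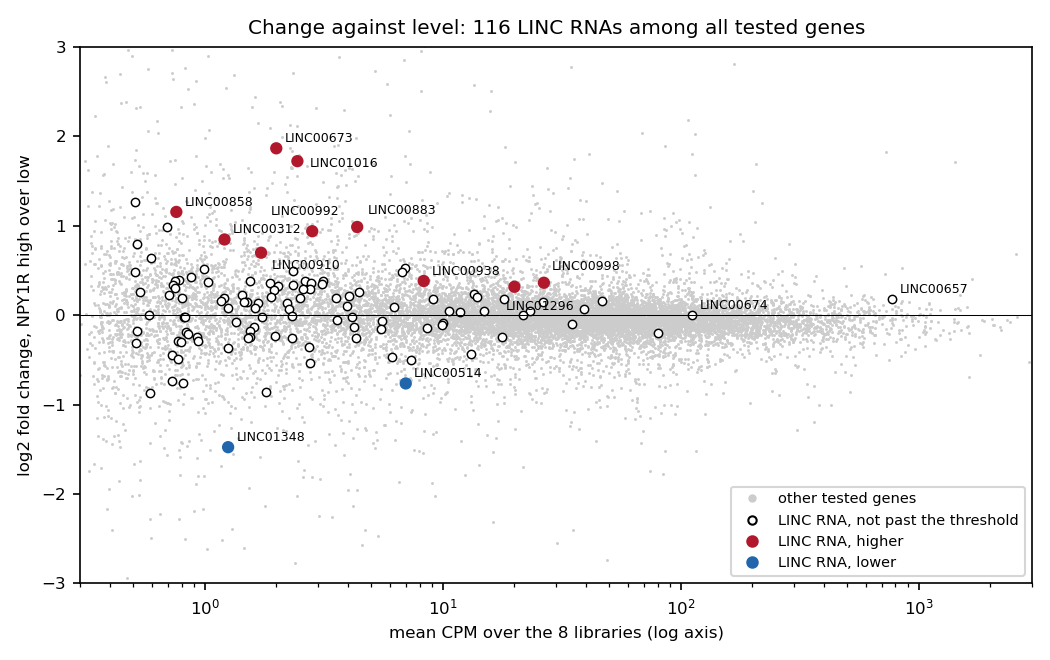
Each point is 1 tested gene, with its mean CPM over the 8 libraries on a log axis and its log2 fold change (NPY1R high over low) on the vertical axis, LINC RNAs circled or filled by call. The called members range from 1.87 (LINC00673) to -1.48 (LINC01348), most of them at under 10 CPM, and 58 other genes lie outside the axes.

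Some LINC symbols now name genes of small proteins. RefSeq lists 11 of the members as protein-coding, of which 1 rose and 1 fell (18.2% called, beside 13.6% of all genes). The 11 include LINC00950, which matched the RefSeq entry of TMEM8B, a separate symbol of the table, and took its type. LINC00998 is the gene of SMIM30, a small membrane protein, at chr7:113116718-113118554 on the minus strand. It measured 26.8, 27.6, 34.5 and 30.7 CPM in NPY1R high and 21.2, 24, 22.7 and 25.1 CPM in NPY1R low. The groups did not overlap, with a log2 fold change of 0.36 (SE 0.10) and an adjusted p of 0.0334, and the call was lost in 5 of the 8 fits that left out 1 library.

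LINC00514 is the gene GREP1, which encodes a glycine-rich extracellular protein, at chr16:2988262-3002011 on the plus strand. It measured 4.84, 4.57, 4.89 and 6.55 CPM in NPY1R high and 7.99, 7.95, 10.7 and 8.64 CPM in NPY1R low. Every low library was above every high one, and the level was 1.70-fold lower in NPY1R high (log2 fold change -0.76, SE 0.15, adjusted p 0.00831). PKMYT1 and CLDN9, its nearest protein-coding genes on either side, had log2 fold changes of -0.42 and -0.56 with adjusted p of 0.566 and 0.414.

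The other small-protein genes did not pass the test. LINC00116 encodes mitoregulin (MTLN), a peptide of the inner mitochondrial membrane, and varied between the low libraries, at 5.44, 5.95, 2.75 and 1.92 CPM, while the high libraries lay between 4.53 and 5.39 CPM (log2 fold change 0.26, adjusted p 0.677). LINC01420 encodes NBDY, a peptide of the messenger RNA decapping bodies, and was at 14.8 ± 1.23 and 12.9 ± 0.744 CPM (SD, n = 4; log2 fold change 0.21, adjusted p 0.195). LINC00493 encodes SMIM26, a mitochondrial protein, and was at 21.8 ± 3.78 and 21.7 ± 1.6 CPM. LINC00094, now BRD3OS, was at 27.7 ± 1.48 and 25 ± 2.27 CPM. Of a list of 9 small-protein LINC symbols, 6 were tested and LINC00998 was the 1 that passed (16.7%, beside 13.6% of all genes).

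LINC01348 had the largest fall of the members. It lies at chr1:235065474-235069818 on the minus strand, between IRF2BP2 and TOMM20. It measured 0.206, 0.558, 0.724 and 1.27 CPM in NPY1R high and 1.64, 1.82, 2.06 and 1.81 CPM in NPY1R low. The low libraries were close together, and the high libraries spread over a wide range below them, with 6 counts in the sparsest. The level was 2.78-fold lower in NPY1R high (log2 fold change -1.48, SE 0.38), with an adjusted p of 0.0297. It ranged from -1.84 to -1.15 over the alternatives and the call was lost in 5 of the 8 fits that left out 1 library.

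**Figure D3:**
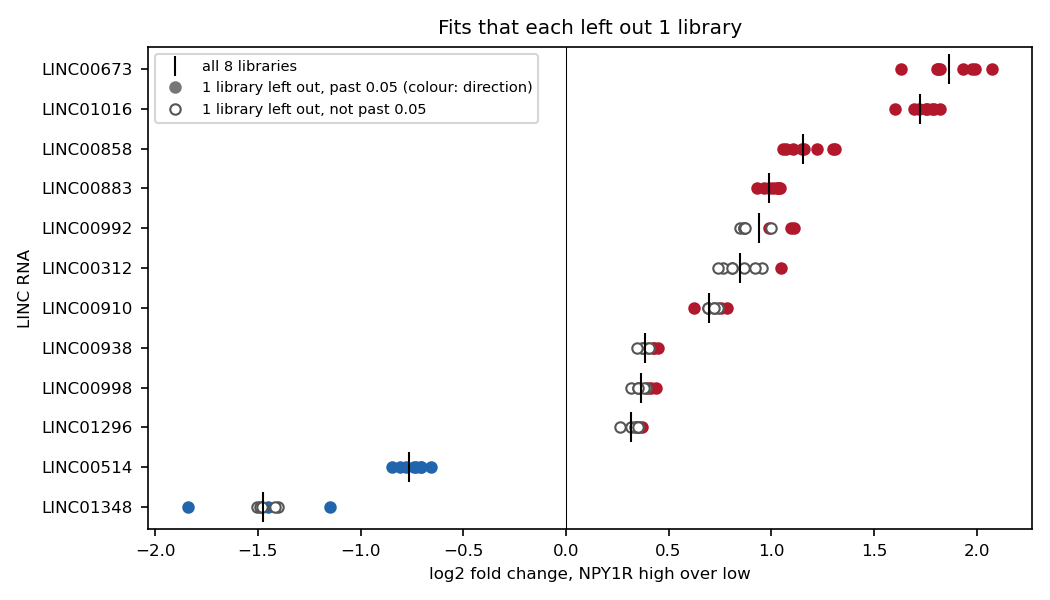
Log2 fold change of each of the 12 LINC RNAs (NPY1R high over low, horizontal axis), with a vertical tick for all 8 libraries and a point for each fit that left out 1 library, filled where the adjusted p stayed under 0.05. No point crosses 0, all points of LINC00673, LINC01016, LINC00858, LINC00883 and LINC00514 are filled, and 1 point of LINC00312 is.

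The direction of all 12 was the same within replicates 1 and 2 and within replicates 3 and 4. For the 11 whose groups did not overlap this follows from the lack of overlap. The 12 were chosen on these same libraries, so this is a description and no separate support. Groups did not overlap for 20 of the 116 members (17.2%), beside 20.2% of all genes tested. In 14 of these every high library was above every low library (12.1%, beside 8.77% of all genes), and in 6 the order was the reverse (5.17%, beside 11.4%). Of the 20, 9 did not pass the test, and LINC00624, LINC00865, LINC00476, LINC00662 and LINC00999 were the ones with every high library above. LINC01207, LINC00472, LINC00963 and LINC01578 had every low library above, at adjusted p of 0.0666, 0.0519, 0.0512 and 0.0663. Those 4 and LINC00624 (log2 fold change 1.26, adjusted p 0.0532) had an adjusted p below 0.05 both under a GC offset and under a term that set replicates 1 and 2 apart from 3 and 4. LINC00624, at means of 0.711 and 0.299 CPM, was a member through its high group alone, so the choice of members favoured a rise there too.

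The most abundant members mostly did not pass. LINC00657, known as NORAD, is an abundant RNA that is needed for a stable chromosome number. It gave between 46.4% and 52.5% of all member counts in each library. It measured 784, 808, 871 and 806 CPM in NPY1R high and 671, 649, 768 and 805 CPM in NPY1R low. The groups nearly separated, with NPY1R low replicate 4 within the high range, and the log2 fold change was 0.18 (SE 0.08, adjusted p 0.178). The adjusted p was 0.0297 with the GC offset, 0.0362 with the replicate term, and 0.0381 without NPY1R low replicate 4.

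LINC01578, known as CHASERR, is transcribed next to CHD2, a chromatin remodeller whose expression it restrains. It measured 71.3, 73.2, 78.7 and 74.7 CPM in NPY1R high and 80.3, 80.6, 89.7 and 92.8 CPM in NPY1R low. The groups did not overlap, yet the difference was small (log2 fold change -0.20, SE 0.06) and the adjusted p was 0.0663, or 0.00635 with the GC offset and 0.0106 with the replicate term. CHD2 had a log2 fold change of -0.10 with an adjusted p of 0.692.

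LINC00674 differed least between the groups of the 6 most abundant members (log2 fold change -0.00, SE 0.05, adjusted p 0.987). It measured 109, 116, 106 and 113 CPM in NPY1R high and 108, 108, 111 and 118 CPM in NPY1R low. LINC01128 was at 49.1 ± 3.75 and 44.0 ± 3.60 CPM (SD, n = 4). LINC00925, the host gene of a miR-9 precursor, was at 40.1 ± 1.42 and 38.2 ± 1.14 CPM. LINC01000 was at 33.9 ± 5.51 and 36.2 ± 4.6 CPM. None of these 3 passed, with adjusted p of 0.265, 0.513 and 0.725. Per kb of annotated exon, over the 107 members with a length in GENCODE 29, the highest levels were those of LINC00674 (151 CPM per kb), LINC00657 (144), LINC00493 (19.8), LINC01578 (14.9) and LINC00998 (14). GENCODE 29 gives LINC00674 only 734 bases of exon and lists it as a transcribed unprocessed pseudogene. The annotation behind the counts is not known, so this order is uncertain.

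A list of 22 LINC symbols studied in breast cancer held 12 members, of which LINC01016, LINC00673 and LINC00312 rose and 9, LINC00657 among them, did not pass. The share called was 25%, all higher, beside 13.6% of all genes called and 5.78% called higher, in a list chosen with earlier results known. LINC00472 came closest, at 0.653, 0.595, 0.470 and 0.441 CPM in NPY1R high and 1.04, 0.841, 0.915 and 0.864 CPM in NPY1R low. All low libraries were above all high ones, with a log2 fold change of -0.74 (SE 0.22) and an adjusted p of 0.0519. LINC00993 was higher in replicates 3 and 4 of both groups, at 7.32, 7.29, 13.4 and 10.6 CPM in NPY1R high and 5.91, 6.02, 10.9 and 11.4 CPM in NPY1R low. LINC01133 spread from 0.330 to 1.51 CPM, with an SE of 0.48 on its log2 fold change of 0.19. LINC00461, the host of another miR-9 precursor, had a log2 fold change of 0.43, LINC01087 of 0.30, LINC00885 of 0.29, LINC00339 of -0.09 and LINC01488 of -0.02, each with an adjusted p of at least 0.322.

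Most members were sparse. The median over members of the mean level was 2.13 CPM, in a range from 0.506 to 771 CPM, and the median member had a median of 54.75 counts per library. The standard error of the log2 fold change had a median of 0.21 over the members and 0.11 over all genes tested, so that smaller changes were less detectable among the members. Between 0.5 and 2 CPM 5 of 57 members passed (8.77%, beside 10.3% of other genes of that level), between 2 and 10 CPM 5 of 40 did (12.5%, beside 13.8%), and from 10 CPM 2 of 19 did (10.5%, beside 14.4%). Members called higher made up 7.02%, 10% and 10.5% at these levels, beside 6.28%, 7.75% and 5.18% of other genes. Members called lower made up 1.75%, 2.5% and 0%, beside 3.98%, 6.07% and 9.26%.

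The threshold of the choice cut through a continuous range of levels. LINC00624 (mean 0.506 CPM) and LINC00933 (0.508 CPM) lay just inside, and LINC01126 (0.476 CPM) and LINC00471 (0.472 CPM) just outside. A further 16 LINC symbols under the minimum were tested, and 0 passed in edgeR, in DESeq2 or in limma-voom, beside 13.6% of all genes in edgeR. Of the 16, 2 had an unadjusted p under 0.05 in edgeR. Among the 116, 27 had an unadjusted p under 0.05 (23.3%, beside 26.2% of all genes tested).

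The members together took between 0.158% and 0.167% of the counts in NPY1R high libraries and between 0.138% and 0.160% in NPY1R low libraries, so the groups overlapped. The log2 fold change was above 0 in 70 of 116 members (60.3%), beside 44.1% of all genes tested, and its median was 0.12 beside -0.03. In 273 antisense RNAs chosen by symbol and the same minimum the share was 63.4% and the median 0.10. Of these antisense RNAs, 7 were called higher and 7 lower (5.13% in all, beside 13.6% of all genes). With 3 other scalings of the libraries the members' median lay between 0.14 and 0.17 and that of all genes between -0.00 and 0.03. These are descriptions of the classes, with no test. With all 8 libraries, of 33 tested long non-coding RNAs with other names, SNHG6, SNHG8, DSCAM-AS1, UCA1 and FTX rose and 28 did not pass (15.2% called, all higher, beside 13.6% of all genes called and 5.78% called higher).

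The protein-coding gene beside a LINC RNA shared its direction about as often as adjacent genes shared theirs. For each member, the protein-coding genes overlapping it and the nearest on each side in RefSeq were taken. The nearest of these that was tested was used. Such a gene can lie far away, as CBLB does from LINC00883 (1371 kb), where CCDC54 at 50.5 kb was not tested. Of 111 members with such a gene, 63 had its direction (56.8%), beside 56.3% of 13700 adjacent tested pairs of genes of any type. The rank correlation of log2 fold changes was 0.180 over the 111 and 0.155 over the 13700, where the pairs share libraries and genes. The neighbour passed the test for 19 of the 111 (17.1%, beside 13.6% of all genes). LINC00992 and SEMA6A, the gene of a membrane semaphorin, were the 1 pair of nearest neighbours in which both passed, with SEMA6A at 11.9 ± 1.06 and 6.02 ± 0.760 CPM (SD, n = 4; log2 fold change 0.98, adjusted p 0.000502), and they lie 840.7 kb apart. SOX9, a transcription factor gene 276.9 kb from LINC00673, had a log2 fold change of -0.35 with an adjusted p of 0.215.

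**Figure D4:**
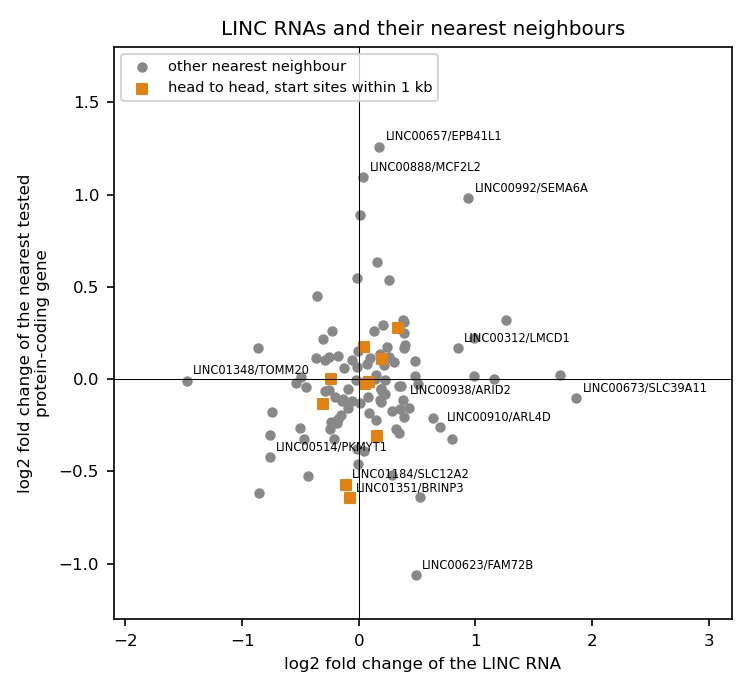
Each point is 1 LINC RNA and its neighbour, the nearest tested gene among the protein-coding genes that overlap it or flank it on each side. The log2 fold change (NPY1R high over low) of the LINC RNA is on the horizontal axis and that of the gene on the vertical axis. Squares are pairs whose start sites face away from each other within 1 kb. LINC00673 and LINC01348, the outermost members, have neighbours at -0.10 and -0.01, and EPB41L1 beside LINC00657 is the highest neighbour at 1.26.

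Other genes beside LINC RNAs were tested in the same way. LINC01348, which fell, lies 455.3 kb from IRF2BP2, a gene of a transcriptional corepressor, which fell (log2 fold change -0.33, adjusted p 0.0153), and 39.5 kb from TOMM20, the gene of a mitochondrial import receptor, which was at -0.01. The call of IRF2BP2 was lost without NPY1R high replicate 3 (adjusted p 0.0618), without NPY1R low replicate 3 (0.0511) and under upper-quartile scaling (0.063). EPB41L1, a membrane skeleton gene 40.5 kb from LINC00657, rose by a log2 of 1.26 (adjusted p 7.71e-05). In 11 members the start site faced away from that of a gene on the other strand within 1 kb. The sites lay from 35 to 849 bases apart, an arrangement in which both can share a promoter region. For LINC00950, beside FAM221B, the start site is that of the RefSeq entry it shares with TMEM8B, a separate symbol. Of these 11, 0 passed in edgeR, in DESeq2 or in limma-voom, beside 13.6% of all genes in edgeR. An unadjusted p under 0.05 in edgeR was reached by 0 of the 11, beside 26.2% of all genes. A further 3 members started within 1 kb of a gene on the other strand without facing away from it, namely LINC00476 and ERCC6L2 (286 bases), LINC01024 and PURA (235) and LINC01560 and ZNF41 (506). None of these 3 members passed in edgeR, and LINC00476 had an unadjusted p of 0.0241. SLC12A2, a sodium, potassium and chloride cotransporter gene, fell from 372 ± 10.5 to 250 ± 42.9 CPM (SD, n = 4; log2 fold change -0.57, adjusted p 0.00560), while LINC01184 beside it was at -0.11. BRINP3 fell from 7.36 ± 1.51 to 4.72 ± 0.402 CPM (log2 fold change -0.65, adjusted p 0.0231), and LINC01351 was at -0.08. BRINP3 lost its call without NPY1R high replicate 1, 3 or 4 or NPY1R low replicate 1 or 2 (adjusted p 0.0588 to 0.077). The difference between the 2 genes of a pair was not tested.

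A group of 4 members contain microRNA hairpins. LINC00461 and LINC00925 host MIR9-2 and MIR9-3, LINC00669 hosts MIR924 and MIR5583-2, and LINC01105 hosts MIR7158. Of these 4, 0 passed in edgeR, in DESeq2 or in limma-voom, beside 13.6% of all genes in edgeR. An unadjusted p under 0.05 in edgeR was reached by 0 of the 4, beside 26.2% of all genes. With 4 members these counts say nothing about hosts of microRNAs. The mature microRNAs were not measured by these libraries.

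Total counts ranged from 18025648 to 30609791 per library. NPY1R, the gene that names the groups, averaged 856.5 ± 170.4 CPM in its high group and 95.5 ± 5.65 CPM in its low group (SD, n = 4; log2 fold change 3.16, adjusted p 1.14e-06), as the labels state. The 8 markers of BT474 ranged from 20.0 to 4289 CPM over the libraries, and not all were level between the groups. GATA3 (log2 fold change 0.60, adjusted p 0.00616) and ESR1 (0.59, 7.23e-05) were higher in NPY1R high. GRB7 (-0.51, 0.00229) and EPCAM (-0.30, 0.00436) were lower, and ERBB2, KRT8, KRT18 and KRT19 did not pass. Markers of other cells, 10 in all, summed to 22.5 to 33.9 CPM in NPY1R high and 25.3 to 36.6 CPM in NPY1R low, most of it from COL1A1 and VWF, with CD3E and KRT14 at 0. Their part in the results was not tested.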

How the data were processed

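RNA from 8 BT474 libraries (4 NPY1R high, 4 NPY1R low) was sequenced from 200 ng of RNA with a stranded kit, per the labels' protocols. The deposited values are expected counts for each gene symbol with no scaling to a common total. STAR 2.5.2, RSEM 1.3.0 and hg38 are named in the submitters' processing notes, with no role or order. The annotation and the strand setting of the counting are not given in the sources used here. Each library held 7.97% to 8.76% of values that were not whole, and all values were rounded before the tests. The columns of unmatched samples numbered 0.

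NPY1R high was compared with NPY1R low over all 14008 genes that passed edgeR's filterByExpr (minimum count 10), with TMM scaling, the quasi-likelihood test without covariates, Benjamini-Hochberg adjustment over all genes and a threshold of 0.05 (R 4.3.3, edgeR 4.0.16). CPM values in the text are TMM-scaled, and the CPM of the choice of members used library totals. Chi-square per degree of freedom was between 5.75 and 62.2 over the 12 within-group pairs of libraries, more than sampling noise, so all 8 were kept as replicates. The procedure was tested on simulated data. The labels name no molecular identifiers.

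Of 116 members, 79 matched RefSeq (GRCh38.p14) by symbol and 37 by synonym, and 107 were in GENCODE 29. Coordinates are those of RefSeq. LINC01006 and LINC00950 share a RefSeq entry with another symbol of the table. The members and lists were chosen with earlier results of these data known. The rule for names took NPY1R, up to 12 rises and 12 falls past the threshold, the 6 most abundant members, those next to the minimum of 0.5 CPM, and the members of the small-protein and breast lists, with their neighbours. Any other gene was named after its values were seen. Alternatives were other scalings and TMM references, other filters, DESeq2 1.42.0, limma-voom (limma 3.58.1), unrounded values, a replicate block, a term for replicates 1 and 2 against 3 and 4, a GC offset (spline with 5 degrees of freedom), each library left out, a threshold of 0.01 and other minimums of membership. Antisense RNAs, neighbours and other described genes were added to these fits after seeing the data.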

Additional observations from a re-analysis of the deposited data

Results flagged for a closer look

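LINC00514 in NPY1R high replicate 4 stood apart from the other libraries of its group. It measured 6.55 CPM, and the other 3 lay between 4.57 and 4.89 CPM. Its distance from the next value, taken as a fraction of the whole spread of the 4, was 0.843, which exceeds Dixon's 95% critical value. The library still lay under all NPY1R low libraries. This was 1 of 70 group values examined, of which chance alone would place about 1 in 20, or 3.5, past that value.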

How the results depend on the processing

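The count of 12 called LINC RNAs (10 higher, 2 lower) rose to 20 with the GC offset (13 higher, 7 lower) and to 21 with the replicate term (1 and 2 against 3 and 4) (15 higher, 6 lower). All 12 were kept in each, and 7 members were added in both. It fell to 4 at an adjusted p under 0.01. It ranged from 5 to 15 with 1 library left out. Under the other alternatives it lay between 10 and 15, with 13 to 14 for the other TMM references. The causes of these shifts were not tested. The share of all genes called under the GC offset, the replicate term or with 1 library left out is not given here. The shifts therefore cannot be read as particular to LINC RNAs. GC content was known for 96.9% of tested genes and for 92.2% of members, not for LINC00673 or LINC00312.

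Correlations showed no clear pairing of single libraries across the groups by replicate number, though they cannot exclude one. Deviations from the group means of same-numbered libraries correlated at 0.339, 0.157, 0.0907 and 0.0178, and not every library correlated best with its own number. Replicates 1 and 2 of each group all had their best match among replicates 1 and 2 of the other group. Replicates 3 and 4 likewise matched best among replicates 3 and 4. The main test had no term for this split. With the replicate block 13 members were called (9 higher, 4 lower), of which 10 were among the 12.

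Of all 1904 calls, 810 were higher and 1094 lower. That split was 898 to 905 under median-of-ratios scaling, 949 to 807 when scaled to library totals and 1009 to 783 under upper-quartile scaling. The 14 antisense calls became 22 with the GC offset, 25 with the term for replicates, and 6 to 15 with 1 library left out. For these counts too, the share of all genes called in the same fits is not given here.

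Of 929 values of named genes under the alternatives, 817 kept their direction and their call, 42 lost the call, 17 gained it and 53 changed sign. The sign changes were all in genes that were not called and whose log2 fold changes with all 8 libraries lay between -0.14 (LINC01126) and 0.19 (LINC01133). LINC00674 was at 0.023 under median-of-ratios scaling, 0.038 when scaled to library totals, 0.0509 under upper-quartile scaling, 0.0378 with no filter, 0.0393 with 1 CPM in 4 libraries, 0.0389 with 10 counts in every library and 0.0229 in DESeq2. With other TMM references it was at 0.0281, 0.0273, 0.0226, 0.0223, 0.0371, 0.0378 and 0.0302. LINC01488 was at 0.0108 under median-of-ratios scaling, 0.0245 when scaled to library totals, 0.0396 under upper-quartile scaling, 0.0242 with no filter, 0.0225 with 10 counts in every library, 0.014 in DESeq2, 0.0517 in limma-voom, 0.000289 with the replicate block, 0.0135 with the replicate term and 0.0351 with the GC offset. With other TMM references it was at 0.0163, 0.0171, 0.0119, 0.0117, 0.0229, 0.0232 and 0.0175. LINC00493 was at -0.00851 in limma-voom, -0.00605 with the replicate block, -0.00297 with the replicate term and -0.0145 with the GC offset. With 1 library left out, LINC00674 ranged from -0.024 to 0.061, LINC01488 from -0.17 to 0.17, LINC00493 from -0.0648 to 0.10, LINC00339 from -0.13 to 0.017, LINC00993 from -0.0017 to 0.39, LINC01000 from -0.13 to 0.0448, LINC01126 from -0.44 to 0.0656 and LINC01133 from -0.0998 to 0.79. Of the 1186 values of 44 described genes, 3 moved by more than the spread between libraries, and of the called ones BRINP3 lost its call in 5 fits and IRF2BP2 in 3.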
